A study of Mus musculus with 12 samples.

Results

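The heat shock proteins and chaperonins are the cell's protein folding machines. The set described here holds the 68 genes, of 12516 in the deposited table, whose symbols start with Hspa, Hspb, Hspd, Hspe, Hsph, Hsp90 or Dnaj, start with Cct and a digit from 2 to 8, or read Tcp1, with Hspbap1 left out. Expression was measured by RNA sequencing of Oct4-positive germ cells sorted from female mouse embryos (embryonic day 13.5). The Gulo-/- genotype and the C57BL/6 background were common to all 12 samples. Such mice lack the last enzyme of vitamin C synthesis and obtain the vitamin from the diet. For 6 samples, called supplied, the colony had received physiological vitamin C, and for 6, called withdrawn, it was taken away over the first 2 weeks of gestation. The comparison asks how maternal vitamin C bears on gene expression in the embryonic germline. The Gulo deletion is shared by both groups, so no animal that makes its own vitamin C enters the comparison. The labels do not say whether a sample held the cells of 1 embryo or of several, nor what the number from 1 to 4 in each sample title (the title number) stands for. Because whole sorted populations were sequenced, fewer cells of a type and less RNA per cell cannot be told apart.

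HSP70 proteins bind exposed hydrophobic stretches of unfolded proteins in a cycle driven by ATP. J-proteins, encoded by the Dnaj genes, deliver clients and start ATP hydrolysis, and nucleotide exchange factors such as the HSP110 proteins release ADP. HSP90 acts later, on nearly folded kinases and receptors handed over by co-chaperones, whereas the ring-shaped chaperonins, CCT in the cytosol and HSP60 with HSP10 in mitochondria, enclose the client. Heat and damage induce part of these genes through the transcription factor HSF1, which binds heat shock elements, and unfolded protein in the endoplasmic reticulum (ER) induces the ER chaperones through the ER stress response element.

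Promoter elements are shown because they name the members whose promoters hold a known stress-response sequence, beside which their values are given below. RefSeq promoters of build GRCm38.p6, each from 250 bases before to 50 after a start site, were matched for 57 of the 68 members (75 promoters). Cct4, Dnajc11, Dnajc18, Dnajc2, Dnajc30, Dnajc5, Hsp90aa1, Hsp90ab1, Hspa13, Hspa8 and Hspa9 were not matched. The deposited values were made on build mm9, so these coordinates belong to the reference only. A heat shock element of 3 units, searched on both strands as GAA, any 2 bases, TTC, any 2 bases and GAA, was present in 0.603% of all 32851 promoters and in 6 of the 75 promoters of members, which belong to Hspd1, Hspe1, Hsph1 and Dnajb6. These promoters are not separate occurrences, as the same Hsph1 bases were found from more than 1 start site. The stretch found for Hspe1 also lies in a promoter of Hspd1. The stress-inducible genes Hspa1a, Hspa1b and Dnajb1 were matched and had no match to the letters of the heat shock element in this window. An ER stress response element, searched on both strands as CCAAT, any 9 bases and CCACG, was present in 0.119% of all promoters and in 3 promoters of members, those of Hspa5, Hsp90b1 and Dnajc3. A match describes these letters and does not show that a factor binds. The Dnajb6 window printed below also overlaps annotated coding sequence of another gene, Gm5129. The lines give each element in capitals with 5 bases on either side, the Hspe1 element being made of overlapping matches.
Hspe1, heat shock element, chr1:55088054-55088081, plus strand, in a UTR exon of a Hspd1 transcript: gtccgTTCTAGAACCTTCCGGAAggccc
Hsph1, heat shock element, chr5:149636283-149636305, minus strand, in the UTR of Hsph1 after its start: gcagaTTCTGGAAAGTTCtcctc
Dnajb6, heat shock element, chr5:29735847-29735869, plus strand, in a UTR exon of a Dnajb6 transcript: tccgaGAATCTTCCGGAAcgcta
Hspa5, ER stress response element, chr2:34772020-34772048, plus strand, in a UTR exon of a Hspa5 transcript: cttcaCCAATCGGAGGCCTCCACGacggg
Hsp90b1, ER stress response element, chr10:86705633-86705661, minus strand, in no annotated exon: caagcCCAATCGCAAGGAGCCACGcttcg
Hsp90b1, the same element on the opposite strand, chr10:86705528-86705556, minus strand, in no annotated exon: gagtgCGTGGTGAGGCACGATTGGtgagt
Dnajc3, ER stress response element, chr14:118937822-118937850, plus strand, in no annotated exon: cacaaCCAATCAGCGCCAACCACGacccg

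The fold changes of these genes between the diets were small, as were those of all genes. With the sign left out, the median log2 fold change was 0.085 for members and 0.084 for all genes. Of the 68 members, 4 were called higher in withdrawn samples (Dnaja1, Hspa14, Hsp90aa1 and Hsp90ab1) and 1 was called lower (Dnajb11), by limma at a Benjamini-Hochberg adjusted p below 0.05 over all genes tested. That is 7.35% of the members, where 14.0% of all 12432 genes tested were called. Among all genes 6.22% were called higher and 7.75% lower. All members passed the filter on low values, a mean of at least log2 of 10. The fold changes of the members ran from -0.34 for Hspa4l to 0.26 for Hspa14 on the log2 scale, with a median of 0.03, and that of all genes was -0.01. With median centring the same 5 members were called, and with quantile normalization Dnaja1, Hspa14 and Dnajb11 were. With a random effect for samples sharing title number and diet 1 member was called higher (Dnaja1) and 0 lower, and with such samples averaged 0 were called in either direction. The 2 groups of samples did not overlap for 1 member (Dnaja1), or 1.47% of members, where 4.49% of all genes did not overlap and 2.15% did so with the withdrawn samples higher. The median SD within a group was 0.10 for members and 0.11 for all genes.

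**Figure D1:**
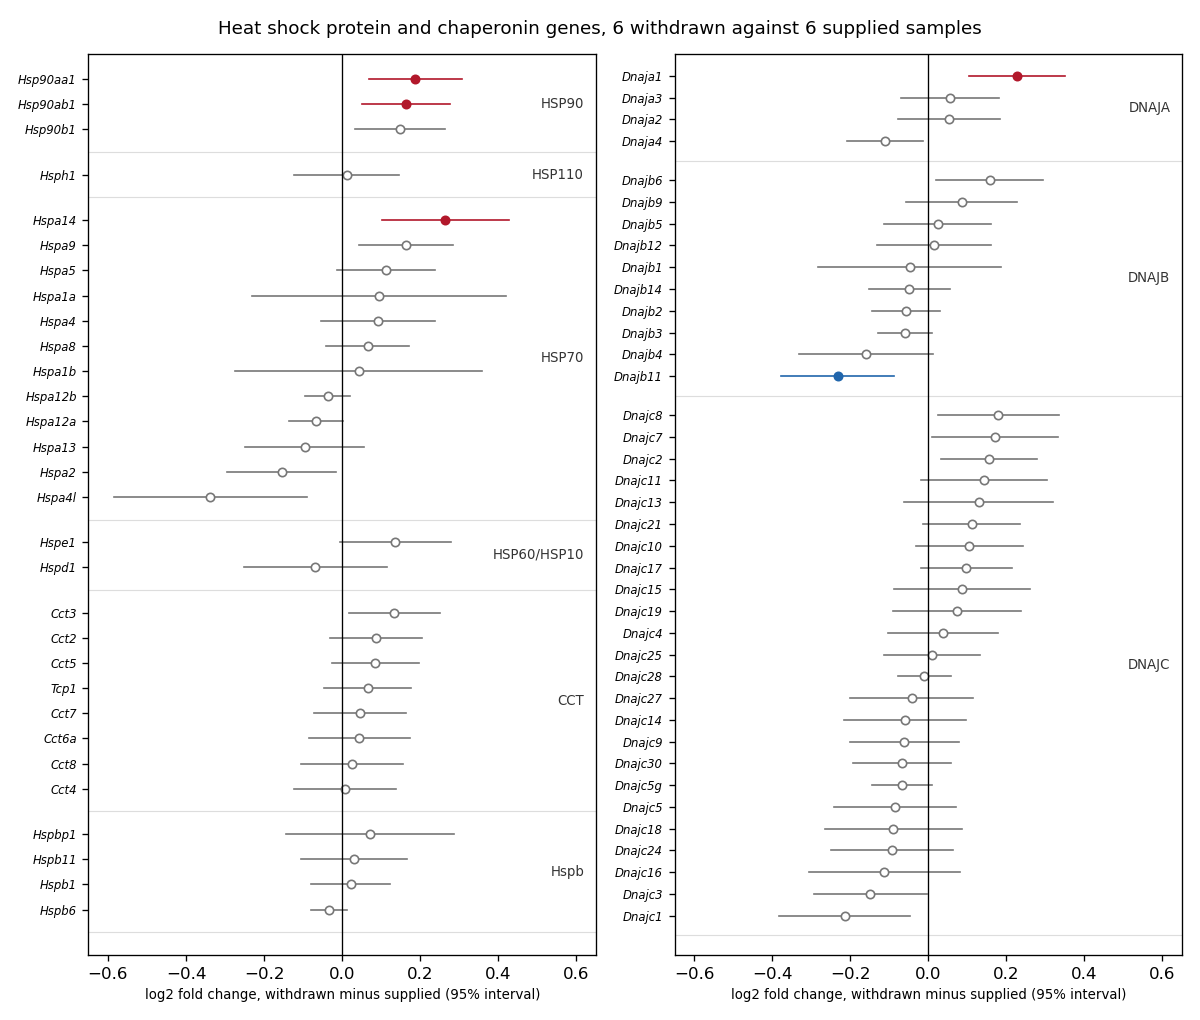
The plot of fold changes shows each of the 68 members as a point with its 95% interval, on the log2 scale (withdrawn minus supplied, 6 samples each), ordered within its family. Filled red and blue points are the 4 genes called higher and the 1 called lower, and open grey points were not called.

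The direction of a gene's change went with its level. Of 388 genes with a mean value of at least 12, 272 were positive and 19.8% were called. Of the 18 members in that range 17 were positive and 2 were called. Of 2772 genes with a mean under 6, 900 were positive, and 1 of 11 members in that range was positive. Quantile normalization, which gives every sample the same distribution of values, left 205 of the 388 positive, and 33 of all 68 members in place of 42. The ranges of 12 and 6 were chosen after the values were seen.

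Both cytosolic HSP90 genes rose in withdrawn samples. Hsp90ab1, the constitutive cytosolic form, had values from 16.07 to 16.17 in supplied samples (median 16.09) and from 16.17 to 16.44 in withdrawn samples (median 16.26). All but 1 of the withdrawn samples, that is 5 of 6, lay above the highest supplied one. Its log2 fold change was 0.16 (SE 0.05, adjusted p = 0.0465), or 1.12-fold. Hsp90aa1, the stress-inducible cytosolic form, ran from 15.43 to 15.68 (median 15.45) in supplied and from 15.58 to 15.83 (median 15.68) in withdrawn samples. Supplied replicate 1 reached the middle of the withdrawn range, and the other supplied samples lay below all withdrawn ones. Its log2 fold change was 0.19 (SE 0.06, adjusted p = 0.0329), or 1.14-fold. The ER form Hsp90b1 (GRP94) ran from 14.26 to 14.48 and from 14.44 to 14.60, and its difference of 0.15 on the log2 scale (SE 0.06) was not called (adjusted p = 0.0777). With quantile normalization the log2 fold change was 0.08 for Hsp90aa1 (adjusted p = 0.569) and 0.10 for Hsp90b1 (adjusted p = 0.185), and that of Hsp90ab1, the second highest value of the table in each of the 12 samples, became 0 by construction. Without supplied replicate 3, 5 or 6, or withdrawn replicate 5 or 6, none of the HSP90 genes was called. Over all 29 alternative analyses the adjusted p ran from 0.0101 to 0.569 for Hsp90aa1 and from 0.0202 to 1 for Hsp90ab1.

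**Figure D2:**
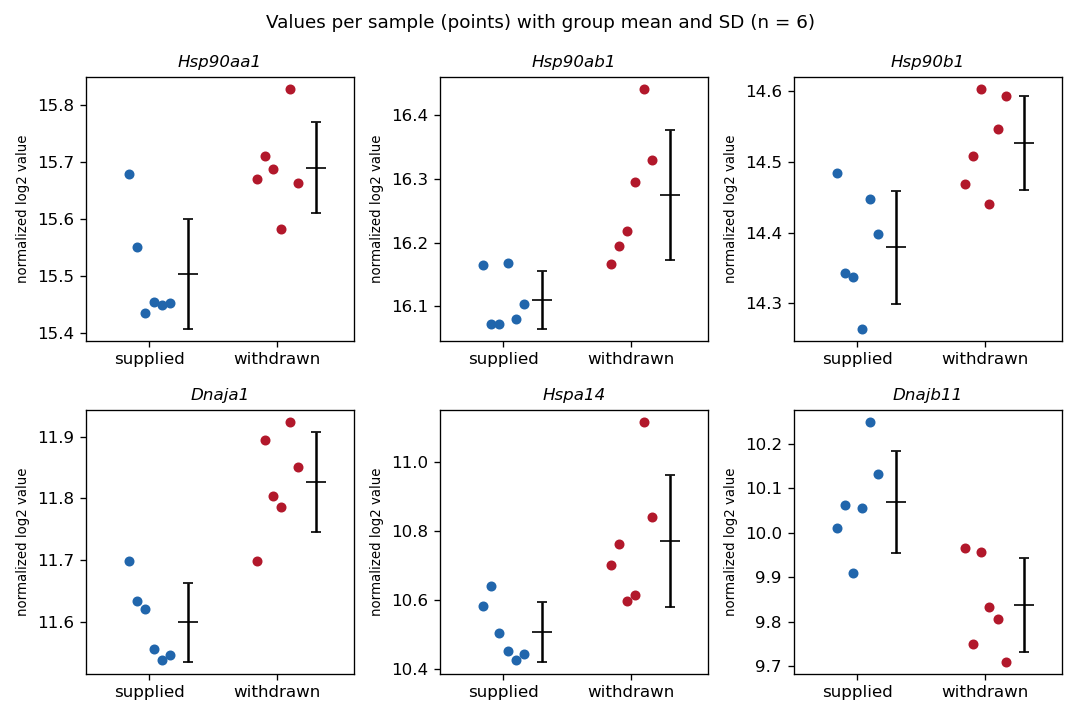
The plot of values by sample shows the normalized log2 value of the 3 HSP90 genes, Dnaja1, Hspa14 and Dnajb11 in 6 supplied (blue) and 6 withdrawn (red) samples, each point 1 sample, with group mean and SD as black bars. The axes do not start at 0, and the groups differ by 0.15 to 0.26 in these genes.

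Among HSP70 genes, Hspa14 was called higher. Its product sits on the ribosome with the J-protein Dnajc2 and binds nascent chains. Hspa14 ran from 10.43 to 10.64 (median 10.48) in supplied and from 10.60 to 11.11 (median 10.73) in withdrawn samples. Withdrawn replicate 5 stood highest, and withdrawn replicates 3 and 4 fell within the supplied range. The log2 fold change was 0.26 (SE 0.08, adjusted p = 0.0289), or 1.20-fold. It was 0.20 and not called without withdrawn replicate 5 (adjusted p = 0.0581, in a range of 0.0181 to 0.403 over the alternatives), and not called without supplied replicate 3, 5 or 6 or withdrawn replicate 6. Dnajc2, named for this partnership after its values were seen, differed by 0.16 on the same scale (SE 0.06, adjusted p = 0.0795).

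The housekeeping HSP70 genes of each compartment had positive fold changes and none was called. Hspa8, the constitutive cytosolic form, ran from 14.72 to 14.84 in supplied and from 14.79 to 14.93 in withdrawn samples, with a log2 fold change of 0.06 (95% interval -0.04 to 0.17, adjusted p = 0.415). Hspa9, the mitochondrial matrix form that pulls in imported proteins, ran from 13.41 to 13.66 and from 13.53 to 13.74, with 0.16 (0.04 to 0.28, adjusted p = 0.0639). Hspa5, the ER form BiP, ran from 12.34 to 12.63 and from 12.56 to 12.74, with 0.11 (-0.01 to 0.24, adjusted p = 0.219). In each of these 3 genes all 6 withdrawn samples lay above the supplied mean, and the groups overlapped.

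Hspa4l, an HSP110-type exchange factor abundant in germ cells of the testis, had the most negative fold change of the group. It ran from 9.22 to 10.14 (median 9.80) in supplied and from 9.14 to 9.68 (median 9.39) in withdrawn samples. Supplied replicates 5 and 6 were the highest, and supplied replicate 4 lay below all withdrawn samples but replicate 5. The log2 fold change was -0.34 (SE 0.12) and was not called (adjusted p = 0.0609), but it was -0.44 and called without supplied replicate 4 (adjusted p = 0.00539, in a range of 0.00539 to 0.775 over the alternatives). The related exchange factor Hsph1 ran from 12.14 to 12.41 in supplied and from 12.13 to 12.45 in withdrawn samples, with 0.01 (95% interval -0.12 to 0.15, adjusted p = 0.924), and -0.03 with quantile normalization.

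The stress-inducible genes Hspa1a and Hspa1b had the largest SDs within a diet of all members, and neither was called between diets. Both encode the inducible HSP70, stand 12.9 kb apart on chromosome 17 and are near-identical copies, so reads may be divided between them. The 250 bases before their starts, which lie in no annotated exon, are printed to show how alike they are. They differ at 3 bases, in capitals, and are 98.8% identical.
Hspa1a, chr17:34972157-34972406, minus strand: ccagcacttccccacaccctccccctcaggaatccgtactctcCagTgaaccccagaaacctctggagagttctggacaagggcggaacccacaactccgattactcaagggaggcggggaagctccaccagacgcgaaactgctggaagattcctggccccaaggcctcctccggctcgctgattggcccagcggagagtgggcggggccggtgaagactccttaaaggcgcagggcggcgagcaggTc
Hspa1b, chr17:34959239-34959488, minus strand: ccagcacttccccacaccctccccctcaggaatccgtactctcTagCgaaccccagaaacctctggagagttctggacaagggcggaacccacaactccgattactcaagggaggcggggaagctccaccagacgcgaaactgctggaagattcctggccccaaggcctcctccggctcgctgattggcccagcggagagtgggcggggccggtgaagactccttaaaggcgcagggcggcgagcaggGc

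Hspa1a ran from 6.23 to 6.90 in supplied and from 6.11 to 7.09 in withdrawn samples, with a log2 fold change of 0.09 (95% interval -0.23 to 0.42, adjusted p = 0.731). Hspa1b ran from 6.38 to 7.17 and from 6.40 to 7.31, with 0.04 (-0.27 to 0.36, adjusted p = 0.883). Within-group SDs were 0.39 and 0.37, above those of 99.8% of all genes. Dnajb1, the stress-inducible J-protein that works with them and named here after its values were seen, ran from 10.15 to 10.69 and from 9.97 to 10.66, with -0.05 (adjusted p = 0.816). The same 5 samples, supplied replicates 2 and 3 and withdrawn replicates 4, 5 and 6, held the 5 highest values of all 3 genes. These samples are the 5 highest of each of these genes, so higher means in them were fixed in advance. Their mean was 6.89 for Hspa1a, against 6.21 in the other 7 samples. The means were 7.14 and 6.49 for Hspa1b and 10.55 and 10.13 for Dnajb1. Of all 12432 genes, 17 had their 5 highest values in these samples, and the 3 were the members among them. How many genes would share them under a random order was not tested, so the 17 are not read as a shared response. Reads may be divided between Hspa1a and Hspa1b, so the 3 genes may not be separate observations. Hsph1 and Hspd1, whose promoters hold the element of 3 units, did not share the order, and both were lowest among withdrawn samples in replicate 5, where Hspa1b was highest. Without title number 4 the fold changes of Hspa1a and Hspa1b were -0.28 each.

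**Figure D3:**
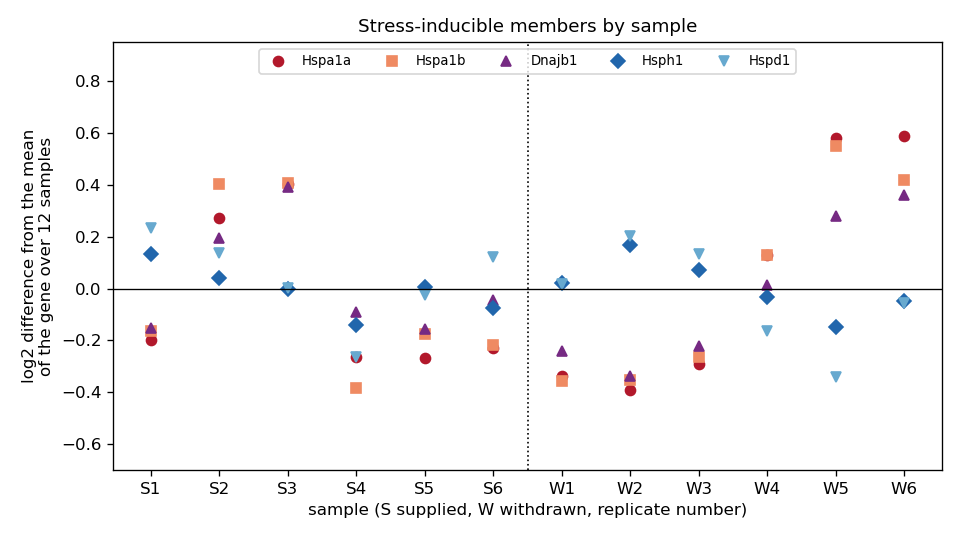
The plot of stress-inducible members shows Hspa1a, Hspa1b, Dnajb1, Hsph1 and Hspd1 in each of the 12 samples as the log2 difference from the gene's mean over all samples. Hspa1a, Hspa1b and Dnajb1 have their highest values in S2, S3, W4, W5 and W6, in both diets, and Hsph1 and Hspd1 do not follow them.

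Both genes of the mitochondrial chaperonin overlapped between the diets. Hspd1 encodes HSP60 and Hspe1 its lid HSP10. They are read in opposite directions from 1 shared promoter, with a Hspd1 start 95 bases and another 216 bases from that of Hspe1, and the element printed above for Hspe1 lies between the farther Hspd1 start and that of Hspe1. Hspd1 ran from 11.96 to 12.46 in supplied and from 11.89 to 12.43 in withdrawn samples, with a log2 fold change of -0.07 (95% interval -0.25 to 0.11, adjusted p = 0.643). Hspe1 ran from 11.77 to 12.15 and from 11.94 to 12.19, with 0.14 (-0.01 to 0.28, adjusted p = 0.182). Whether strand was used in counting is not given in the sources used here, so reads from their overlapping first exons may be assigned to either gene.

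The CCT ring, built of 8 different subunits, did not pass the test in any subunit. Its main clients are actin and the tubulins. Limma called 0 of 8 subunits, where 14.0% of all genes were called, with 1 (Cct3) at an unadjusted p below 0.05. The exact permutation test, which called only genes whose groups did not overlap, also called 0. Cct3 ran from 12.59 to 12.72 in supplied and from 12.67 to 12.90 in withdrawn samples, with a log2 fold change of 0.13 (95% interval 0.02 to 0.25, adjusted p = 0.111). Cct4 ran from 11.86 to 12.15 and from 11.94 to 12.13, with 0.01 (-0.12 to 0.14, adjusted p = 0.951). The fold changes of the other subunits, Cct2, Cct5, Cct6a, Cct7, Cct8 and Tcp1, lay between 0.03 and 0.09, and their 95% intervals between -0.11 and 0.21. All 8 fold changes were positive as deposited and with median centring, but 1 of 8 was positive with quantile normalization and 5 of 8 with the somatic marker covariate described at the end. None of the 29 alternatives called a subunit. The subunits differed together by sample. In supplied replicates 3 and 4 none of the 8 lay above its own mean over the 12 samples, and in withdrawn replicate 1 all 8 did. Supplied replicates 1 and 6 had 6 and 7 subunits above their mean, as many as the withdrawn samples, in which 3 to 8 were.

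**Figure D4:**
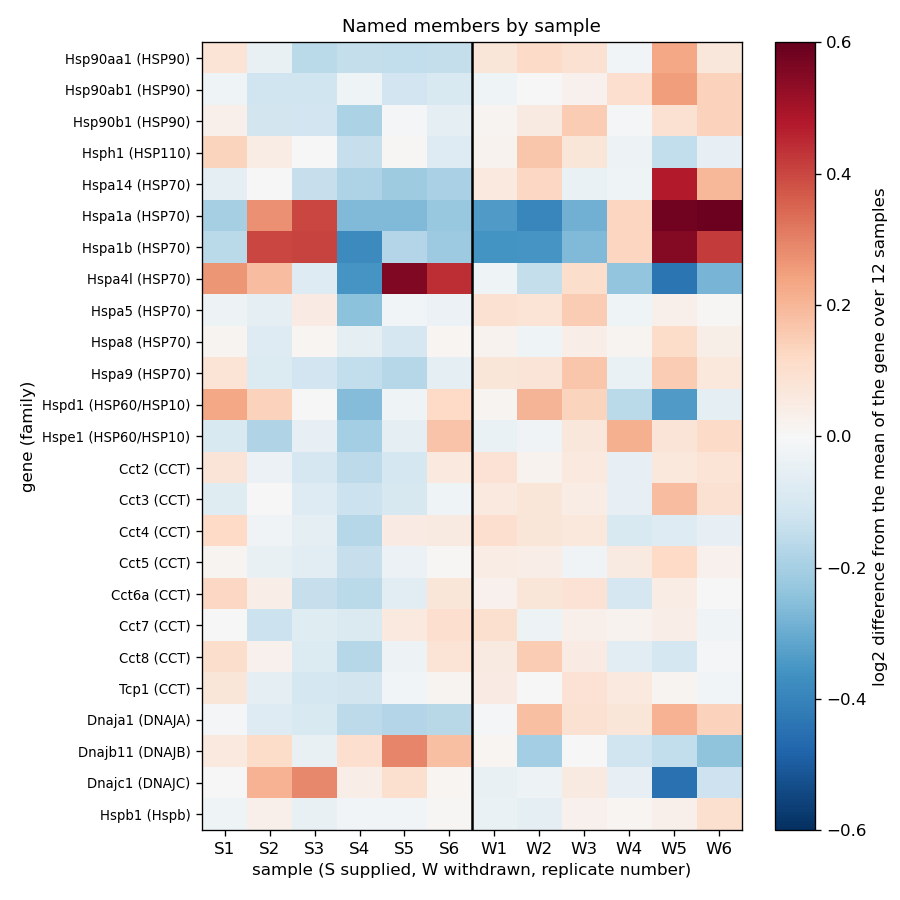
The heat map of named members shows the log2 difference of each of 25 genes (rows, with family) from its mean over the 12 samples (columns, S supplied and W withdrawn). The 3 HSP90 genes are mostly pale blue in supplied and pale red in withdrawn samples. The CCT subunits are also pale, and Hspa1a and Hspa1b alternate within both diets.

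Of 38 J-protein genes, 1 was called higher and 1 lower (5.26%, against 14.0% of all genes). Positive fold changes were found for 19 of them (50%, against 46.6% of all genes). Dnaja1, a cytosolic J-protein that serves Hspa8, ran from 11.54 to 11.70 (median 11.59) in supplied and from 11.70 to 11.92 (median 11.83) in withdrawn samples. All 6 withdrawn samples lay above all supplied ones, the nearest by 0.000101. This was a rise of 0.23 on the log2 scale (SE 0.06, adjusted p = 0.0160), or 1.17-fold. By the exact permutation test of all 924 arrangements of the samples its p was 0.00216, the smallest possible, and its adjusted p = 0.0482. This test called 558 of all genes, and 558 did not overlap, so it repeats the missing overlap and adds no further support. Dnaja1 lost its call in 3 of the 29 alternatives, the fewest of the 5 called members, and its adjusted p ran from 0.0130 to 0.238 over them.

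Dnajb11 (ERdj3), a soluble partner of BiP in the ER, was the member called lower. It ran from 9.91 to 10.25 (median 10.06) in supplied and from 9.71 to 9.97 (median 9.82) in withdrawn samples. Of the withdrawn samples 4 lay below all supplied ones. The log2 fold change was -0.23 (SE 0.07, adjusted p = 0.0297), or 1.17-fold lower. The call was lost without supplied replicate 5 or 6 or withdrawn replicate 2, 4 or 6. Dnajc1, an ER membrane J-protein, ran from 8.97 to 9.27 and from 8.53 to 9.03, with -0.21 (SE 0.08, adjusted p = 0.0792), and withdrawn replicate 5 stood lowest. Dnajc3, named because its promoter holds the ER element, ran from 9.52 to 9.78 and from 9.35 to 9.66, with -0.15 (adjusted p = 0.159). The ER J-proteins Dnajb9 and Dnajc10 had positive fold changes of 0.09 and 0.11 and were not called. The genes with an ER element thus pointed both ways, as Hspa5 and Hsp90b1 were positive and Dnajc3 negative, and none of the 3 was called.

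An unadjusted p below 0.05 in limma was found for 3754 of all 12432 genes and for 5 of the 24 Dnajc genes. None of these 24 was called by limma or the exact test. Their largest positive fold changes were those of Dnajc8, a splicing-associated protein, at 0.18 and of Dnajc7, which moves clients between HSP70 and HSP90, at 0.17 (adjusted p = 0.109 and 0.145). Dnajb6, whose promoter holds a heat shock element, was at 0.16 (adjusted p = 0.110). Of the genes with the Hspb prefix, Hspb1, a small heat shock protein, ran from 6.07 to 6.15 in supplied and from 6.06 to 6.22 in withdrawn samples, with 0.02 (95% interval -0.08 to 0.12, adjusted p = 0.807). Hspb6, Hspb11 and Hspbp1 lay between -0.03 and 0.07, with Hspb6 at a mean of 3.61, near the filter at 3.32. Of these, Hspb11 is a protein of ciliary transport and Hspbp1 an HSP70 exchange factor, so they share the prefix without being small heat shock proteins in the strict sense.

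Several partners of HSP90 rose in withdrawn samples. Of 41 heat shock factors and co-chaperones kept, 7 were called higher and 1 lower (19.5%, against 14.0% of all genes, median log2 fold change 0.06). The higher ones were Stip1, which hands clients from HSP70 to HSP90 (0.28, adjusted p = 0.00489), the kinase adaptor Cdc37 (0.28), the HSP90 cofactors Ppid (0.31), Sugt1 (0.36) and Nudcd2 (0.26), and the ATPases Ruvbl1 (0.37) and Ruvbl2 (0.49), which work with HSP90 in complex assembly. The 7 called higher were 5 with the random effect, 3 with samples averaged, 3 by the exact test and 1 with the somatic marker covariate, and the 1 called lower was 0 in each of these. Tsc1, an HSP90 cofactor better known as a brake on mTOR, was lower (-0.23). Hsf1 was at 0.09 (adjusted p = 0.478) and Hsf2 at -0.03 (adjusted p = 0.747).

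Of 14 CCT clients, 6 were called higher and 0 lower (42.9%, against 14.0% of all genes, median 0.20). They were Tuba1b (0.21), Tuba1c (0.25), Tubb2b (0.22), Tubb4b (0.33), Tubb5 (0.23) and Tubg1 (0.30), all tubulins. All 14 fold changes were positive as deposited, with median centring and with quantile normalization, and 13 without title number 4. The 6 calls were 3 with the random effect, 2 by the exact test, and 0 with samples averaged or with the somatic marker covariate. Tubulin genes are close paralogs, and reads may be divided among them, so they may not be separate observations. Of 13 prefoldin and CCT cofactor genes 1 (Pdcd5, 0.22) was called higher and 0 lower (7.69%). Of 25 ER folding genes 0 were higher and 3 lower (12%, where 14.0% of all genes were called), namely the stress sensor Ern1 (-0.43), the translocon J-protein Sec63 (-0.30) and the degradation adaptor Sel1l (-0.29). The 3 ER calls were 2 with the random effect, 1 with samples averaged, 1 by the exact test and 0 with the somatic marker covariate. The 1 call among prefoldin and CCT cofactors was 0 in each of these. Of 18 genes of mitochondrial import and folding, Timm44 (0.24) and Tomm40 (0.41) were higher and 0 lower (11.1%), and 0 were called with the random effect. The median log2 fold change was 0.05 for prefoldin and CCT cofactors, -0.01 for ER folding (0.01 with median centring) and 0.12 for mitochondrial import.

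**Figure D5:**
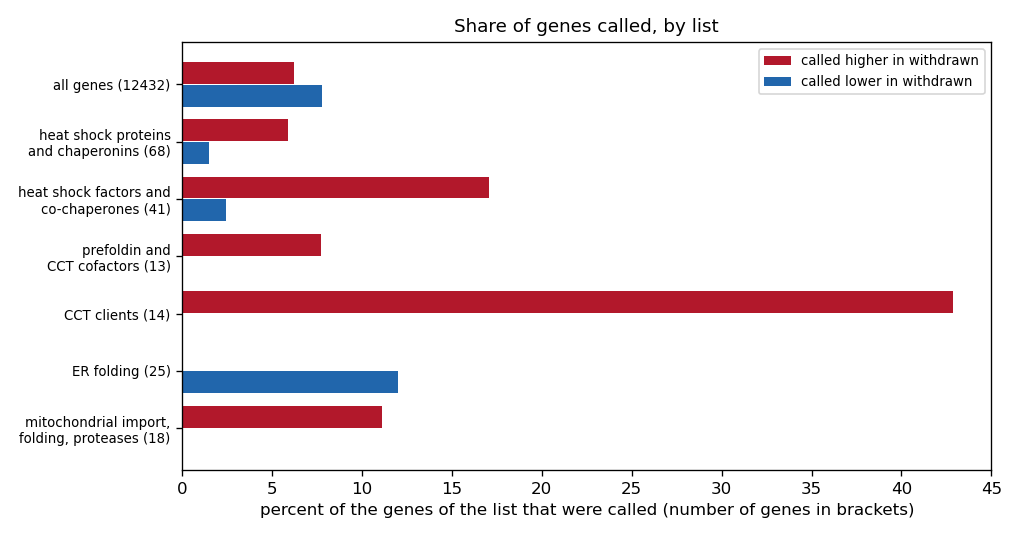
The bar plot of lists shows the percent of genes called higher (red) and lower (blue) in withdrawn samples, with the number of genes in brackets. The 68 heat shock proteins and chaperonins sit below all genes in total share, and CCT clients and co-chaperones have the longest red bars.

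No call among the members was kept in every alternative. Leaving out the 4 samples of title number 4 (supplied and withdrawn replicates 5 and 6) called 0 members and 0.394% of all genes, and Dnaja1 was then at 0.17 (adjusted p = 0.238) and Hsp90aa1 at 0.13 (adjusted p = 0.343). The same fit called 0 genes of the 5 lists of partners. Leaving out the 4 samples of title number 1 instead called 3 members and 5.86% of all genes. All 9 germ cell markers lay above the median gene, and 0 of the 23 markers of other gonadal and blood cells in the table did. The 10 markers of ovarian supporting cells were all lower in withdrawn samples, and their summed linear level was 368 to 462 in supplied and 342 to 406 in withdrawn samples, against 41800 to 48400 and 43900 to 47100 for the germ cell markers. Of these 9 markers 7 were called, in both directions. The pluripotency-associated genes Pou5f1 (0.45), Dppa4 (0.42), Tfap2c (0.39), Dppa3 (0.23) and Sall4 (0.23) were higher in withdrawn samples, and the germ cell RNA-binding genes Dazl (-0.43) and Ddx4 (-0.34) were lower. The part of this shift in the members' values was not tested. The summed mesenchyme markers were at 169 to 263 and at 168 to 198. With the mean of these non-germ markers as a covariate, 0 members and 1.54% of all genes were called, and Dnaja1 was at 0.23 (adjusted p = 0.0950). All 4 mesenchyme markers were lower in withdrawn samples, as were the 10 of supporting cells, so this covariate partly follows diet. The SE of Cct3 was 0.056 in the main fit and 0.070 with it. What the loss of calls owes to other cells cannot be told from this fit.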

How the data were processed

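The authors deposited 1 table of normalized log2 expression values, 12516 gene symbols by 12 samples. The submitters' processing notes list Trim Galore (0.4.0) and FastQC, TopHat2 (2.0.13), DESeq2 (1.10.1) and build mm9, without roles. The read counter, strand use, annotation, gene filter and form of the log2 transformation were not given in these sources. If that form shrinks low values, changes of low genes are understated. The depth is unknown. Members and lists were chosen with earlier results of these data known. Genes with a mean of at least 3.32 (log2 of 10) were kept. Withdrawn and supplied samples were compared with limma 3.58.1 in R 4.3.3 (moderated variances with a trend, two-sided, Benjamini-Hochberg over 12432 genes, called below 0.05). Fold changes are withdrawn minus supplied, with the moderated SE and 95% interval. P values treat samples as independent and measure only the spread between these samples, which may be technical; if a title number marks a litter or batch, they are too small. The rule for named genes took the called members, all HSP90, CCT and mitochondrial chaperonin genes, Hspa8, Hspa5, Hspa9, Hspa1a, Hspa1b, Hsph1, Hspb1 and the 3 largest changes in each direction. Alternatives changed the filter, scaling, variance model, weights, test, threshold and samples used. In simulated data for this comparison (12432 genes), the fit recovered 29.5% of genes changed by 0.2, 96.9% of those changed by 0.5 and 100% of those changed by 1 on the log2 scale. The simulated noise was normal and independent between samples. Only 61, 64 and 75 genes were changed by these sizes, fewer than were called here, so these rates may not hold for the real data.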

Additional observations from a re-analysis of the deposited data

Results flagged for a closer look

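In 50 groups of 6 samples (25 named genes, each diet), 2 had 1 sample far from the others; chance alone gives about 1 in 20. Dnajc1 was at 8.53 in withdrawn replicate 5, where the next lowest withdrawn sample was at 8.85. Hspa5 was at 12.34 in supplied replicate 4, where the next lowest supplied sample was at 12.53.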

How the results depend on the processing

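The 4 members called higher were 2 with quantile normalization or without title number 2, 1 with array quality weights, the exact permutation test per gene or a random effect for samples sharing title number and diet, 0 with such samples averaged, without title number 4 or with the somatic marker covariate, and 7 at an adjusted p below 0.1. The 1 called lower was 2 with array weights or without title number 2 or 3, 3 at an adjusted p below 0.1, and 0 with the exact test, the random effect, averaging, the somatic covariate or without title number 1 or 4. Leaving out 1 sample at a time gave 1 to 7 higher and 0 to 2 lower: 1 higher without supplied replicate 3, 5 or 6 or withdrawn replicate 5 or 6, 7 without supplied replicate 1, 0 lower without supplied replicate 5 or 6 or withdrawn replicate 2, 4 or 6, and 2 lower without supplied replicate 4 or withdrawn replicate 3. Whether the title numbers pair the samples cannot be told from 4 numbers. The deviations of same-numbered supplied and withdrawn samples correlated at 0.311, -0.045, 0.208 and -0.216 over genes, and 1 of 4 numbers matched its own best. With title number as a replicate block, 6 members were higher and 2 lower, the added ones being Hsp90b1, Hspa9 and Dnajc1. That fit called 16.6% of all genes, against 14.0% in the main fit. Of 25 named genes, 12 kept their direction in all 29 alternatives, Hsp90ab1 was at 0 with quantile normalization, and 12 changed sign in at least 1; none of the sign changers was called in any. The call of Dnaja1 was lost in 3 alternatives, of Dnajb11 in 11, of Hspa14 in 12, of Hsp90aa1 in 14 and of Hsp90ab1 in 17, and the cause was not tested. No pseudocount was varied because the values were deposited as log2. The unknown depth allows no statement on counting error.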
